A study of Mus musculus with 16 samples.

Results

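A TALE protein that binds at the mouse gene Ptn and carries the peptide DEL was compared with EGFP alone in embryonic stem (ES) cells, on 8 of the series' 16 single-colour Agilent arrays. The members are the 4 hybridisations titled as Ptn DEL and the 4 titled as EGFP, called Ptn_DEL and EGFP here. All were E14 cells, a mouse ES cell line, grown in medium with 15% fetal bovine serum and 1000 units/ml of LIF, the cytokine that keeps these cells undifferentiated. Each culture was transfected with 3 µg of plasmid by a lipid reagent, sorted for eGFP fluorescence at 24 h, plated again and harvested at 48 h for polyadenylated RNA. The other 8 arrays held cells given the same TALE with VP64 or with Delta, called Ptn_VP64 and Ptn_Delta; the labels do not say what Delta carries. The EGFP plasmid has no TALE, so DEL and the TALE itself differ together between the compared groups. Each group's 4 arrays come from 2 biological samples with technical repeats, and the labels do not say which arrays share a sample. Plasmids were transient, only 1 cell line was used, and chromatin was not measured on these arrays.

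Ptn encodes pleiotrophin, a secreted heparin-binding growth factor that is prominent in the developing nervous system and that binds receptors such as the phosphatase Ptprz1 and the kinase Alk. A TALE is a bacterial DNA-binding protein whose repeats can be ordered to read a chosen sequence, which places a fused domain at 1 gene. VP64 is a strong transcriptional activator built from a viral peptide, whereas DEL is an acidic peptide reported to unfold chromatin without being an activator. The study asked about chromatin decondensation and the organisation of the nucleus, and the comparison here addresses what the DEL fusion did to transcripts, at Ptn and elsewhere.

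The sequence before the start of Ptn is shown because the construct was aimed at this gene; the bases that the TALE reads are not given in the sources used here. The RefSeq promoter table holds the 250 bases before the annotated start, on the minus strand of GRCm38.p6 at chr6:36810180-36810429.

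Ptn promoter: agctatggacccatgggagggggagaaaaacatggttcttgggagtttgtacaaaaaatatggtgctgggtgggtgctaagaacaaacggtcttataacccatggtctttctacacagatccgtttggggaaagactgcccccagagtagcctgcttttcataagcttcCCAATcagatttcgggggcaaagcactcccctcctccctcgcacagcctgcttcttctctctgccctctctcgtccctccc

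Capitals mark the CCAAT motif, which begins 81 bases before the start. Both strands were searched for CCAAT, for TATAAA and for GGGCGG, motifs that do not overlap here, and the latter pair are not in this window. Among 32851 promoter windows of the same length, 33.8% held CCAAT, 12.4% TATAAA and 32.7% GGGCGG. The window has a GC content of 52% and 5 CG dinucleotides, beside medians of 52.4% and 6 over all windows.

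Signal quality differed between the 8 arrays, and 1 array stood apart. The 75th percentile of processed signal was 209 on EGFP replicate 2 and 566 to 935 on the others. After correction for dim and bright patches, the median correlation of EGFP replicate 2 with the other arrays of the series was 0.861, against 0.919 to 0.958 for the other 7. The share of spots well above background ran from 27.1 to 41.2% in EGFP and from 36.1 to 40.7% in Ptn_DEL. Saturated spots made up 0.132 to 0.936% in EGFP and 0.707 to 1.56% in Ptn_DEL. Replicates 1 and 2 were on one slide and replicates 3 and 4 on the other, and repeated spots of 1 probe varied by 52.4 to 81.1% (CV) on the first slide against 12.2 to 39.3% on the second. The column of the array on its slide was the same for every replicate of a construct, so position and construct cannot be told apart. All 10 ES cell markers, Pou5f1 and Sox2 among them, were well above background on at least 2 arrays of each group. Levels are given as log2 of the processed signal relative to the array's 75th percentile, after the patch correction.

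Ptn was at a low level after DEL and after EGFP, and the spread was too wide to tell a modest difference from none. On the probe that could be fitted over all groups, A_55_P2183404, the EGFP spots used were at -0.26 in replicate 2 and -1.92 in replicate 4. Ptn_DEL replicates 2, 3 and 4 were at -0.20, -2.52 and -0.10. On this probe, EGFP replicate 2 and Ptn_DEL replicate 2 were not well above background. The Ptn_DEL values span the EGFP values on both sides, so the groups overlap. The fitted difference of Ptn_DEL minus EGFP was -0.25 ± 1.31 (SE; limma, adjusted p = 1.00), and its error is larger than the difference itself. Arrays were averaged to 2 samples per group in 3 possible pairings, and this value is from the pairing with the largest p. The means of the spots used were -0.94 for Ptn_DEL and -1.09 for EGFP, and with arrays unaveraged the fitted difference was 0.32 ± 0.87.

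On the other probe, A_55_P2164629, the 4 EGFP arrays read -1.83, -0.10, -1.44 and -1.10 in order of replicate. Ptn_DEL replicates 2, 3 and 4 read 1.11, -1.66 and 0.23, and replicate 1 lay in a patch and was left out of both probes. Ptn_DEL replicates 2 and 4 were above every EGFP array here and replicate 3 was below all but the lowest of them. Ptn_DEL replicate 2, the highest value, and EGFP replicate 2 were not well above background on this probe either. Means of the spots used on this probe were -0.11 for Ptn_DEL and -1.12 for EGFP. The fitted difference was 0.62 ± 0.80 (SE; limma, adjusted p = 1.00), on the condition of 2 arrays in the compared groups alone, an alternative chosen after seeing the data. Over 25 alternatives the Ptn difference ran from -0.33 to 0.94, above 0 in 12 and below 0 in 13, so no direction can be given.

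With VP64 at the same gene, Ptn was far brighter on both probes. The 4 Ptn_VP64 spots used, over both probes, lay between 2.62 and 3.46, above all 6 EGFP spots, -1.92 to -0.10, and all 6 Ptn_DEL spots, -2.52 to 1.11. The 7 Ptn_Delta spots used, -2.04 to 0.72, fell in the range of Ptn_DEL. The fitted difference between Ptn_DEL and Ptn_VP64 on probe A_55_P2183404 was -4.24 ± 1.07 (SE; limma, adjusted p = 1.00), so it too missed the threshold in this fit. Between Ptn_DEL and Ptn_Delta it was 0.41 ± 0.68 (SE; limma, adjusted p = 1.00).

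**Figure D1:**
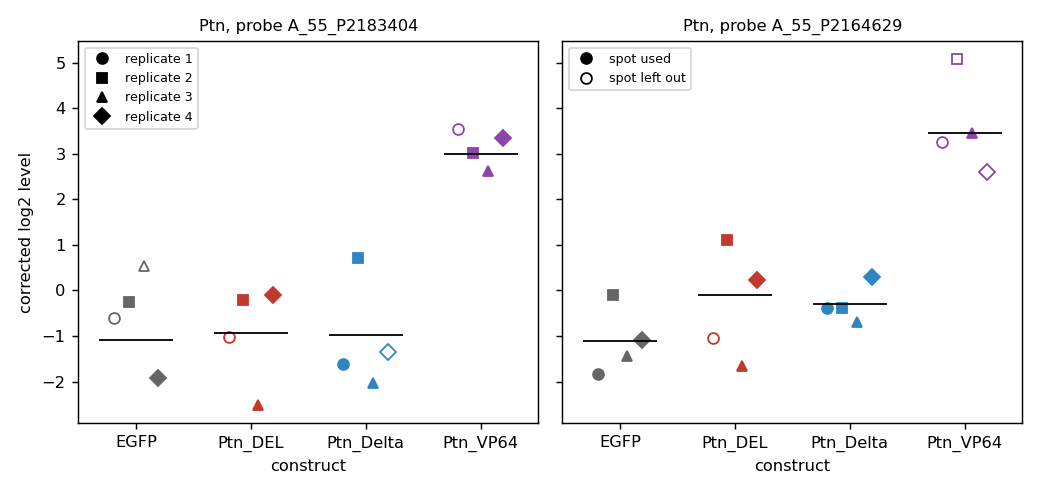
Corrected log2 level of Ptn (vertical axis) on its probes A_55_P2183404 and A_55_P2164629, by construct; each point is 1 array, its shape gives the replicate, open points are spots left out as marked or in a patch, and bars are means of the spots used. Ptn_DEL, Ptn_Delta and EGFP share the range from -2.52 to 1.11, below the Ptn_VP64 spots, and the open points of those 3 groups lie in it too, at -1.34 to 0.54.

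No transcript passed the threshold for a difference between Ptn_DEL and EGFP. Of 19591 probes tested, 6131 had no gene name and the rest stood for 10923 named genes. Of the 19591, 0 (0%) had an adjusted p under 0.05 in limma on arrays averaged to 2 samples per group. The largest p of the 3 possible pairings was kept for each probe, with the difference and error of that pairing. At an unadjusted p under 0.05, 197 probes (1.01%) were higher and 191 (0.975%) lower after DEL. Counting each array as a replicate, which takes technical repeats for samples and makes p-values too small, limma also called 0 of 19591 (0%), with a smallest adjusted p of 0.0714 and with 615 probes higher and 738 lower at an unadjusted p under 0.05. The split of the unadjusted counts depended on the scaling, with 724 higher and 112 lower in the authors' deposited series values, 77 and 152 after quantile normalization and 131 and 874 after normexp background correction. The median standard error of a difference was 0.39 log2 units.

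Some probes nevertheless lay wholly on one side of EGFP. Among 3164 probes measured on all 8 arrays, Ptn_DEL was above EGFP throughout for 93 (2.94%) and below for 36 (1.14%). Requiring only 3 arrays in each group, 457 of 12842 probes (3.56%) were above and 295 (2.3%) below. Of 1158 steady probes, those well above background on all 8 arrays, 35 (3.02%) were above and 17 (1.47%) below. That split turned to 2 above and 54 below after quantile normalization. The median absolute difference of steady probes was 0.19 log2 units. Among the 42 steady probes (3.63%) past 1 log2 unit, 3 were higher and 39 lower after DEL. All probes tested at a mean level over 6 had a median of -0.56, with 73.8% of values saturated in Ptn_DEL and 55.4% in EGFP. EGFP replicate 2 was the highest EGFP array for 484 of the 1158 steady probes and the lowest for 263. The part of saturation or of that array in this split was not tested.

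The steady genes higher after DEL included an apoptosis gene and several genes that interferon induces, although neither list was higher as a whole. Of 16 apoptosis genes 7 were higher and 9 lower, with a median of -0.06, and of 17 interferon and DNA-sensing genes 8 were higher and 9 lower, with a median of -0.005, beside -0.003 over all probes tested. Apaf1, the scaffold of the apoptosome, read 1.20, 0.54, 1.04 and 0.61 in EGFP replicates 1 to 4 and 1.80, 1.60, 1.73 and 1.61 in Ptn_DEL. The lowest Ptn_DEL array was above the highest EGFP array, and the difference was 0.83 ± 0.27 (SE; limma, adjusted p = 1.00). Gbp2b, an interferon-induced guanylate-binding protein, read -0.63, -0.62, -0.73 and -1.53 after EGFP and 1.03, 0.16, 0.79 and 0.37 after DEL. All 4 Ptn_DEL arrays were above EGFP, by 1.46 ± 0.55 (SE; limma, adjusted p = 1.00), the largest difference of the 10 genes. Its other probe, A_51_P398766, was not well above background on any of the 3 EGFP arrays measured, at -2.72, -3.01 and -3.80, and read -0.26, -1.06, -0.01 and -1.45 after DEL. The mean of that probe was at least 2.24-fold higher after DEL. Over the alternatives its difference ran from 0.32 to 3.07 log2 units.

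Ifitm3, an interferon-induced membrane protein that is abundant in ES cells, read 4.91, 4.45, 5.14 and 4.81 after EGFP and 5.27, 5.47, 5.37 and 5.58 after DEL. H2-K1, a class I antigen-presenting molecule, read 1.83, 0.60, 1.74 and 1.34 after EGFP and 2.19, 1.86, 2.04 and 2.17 after DEL. Both gaps between the groups were narrower than the spread among EGFP arrays, with differences of 0.59 ± 0.27 for Ifitm3 and 0.69 ± 0.35 for H2-K1 (SE). Prr7, a proline-rich membrane protein, read -0.03, 0.43, -0.04 and -0.37 after EGFP and 1.43, 0.57, 0.70 and 0.90 after DEL, a difference of 0.90 ± 0.24. The remaining 4 steady genes, the kinase gene Map4k5, Lzic, the phosphatase gene Ptpn18 and the small GTPase gene Rac3, were higher by 0.47 to 0.69. In 6 of the 10 genes, EGFP replicate 2 was the EGFP array farthest from Ptn_DEL, and the median difference of the 10 was 0.69 with it and 0.52 without it.

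The steady genes lower after DEL rested more on that array. Tfeb, a regulator of lysosomal genes, read 0.37, 1.20, 0.20 and -0.78 after EGFP, and all 4 arrays after DEL lay between -1.13 and -0.84. EGFP replicate 4 lay close to the Ptn_DEL arrays and replicate 2 far above them, with a difference of -1.20 ± 0.38 (SE; limma, adjusted p = 1.00). Zfp57, a zinc-finger protein that protects genomic imprints, read -0.93, 1.71, -0.87 and -0.62 after EGFP and -1.16, -0.99, -1.16 and -1.01 after DEL. Apart from EGFP replicate 2, the Zfp57 arrays were nearly level, and its difference of -0.90 ± 0.53 was -0.26 without that replicate. Arhgdib read -0.78, -0.32, -0.86 and -1.27 after EGFP and -1.57, -2.10, -1.41 and -2.06 after DEL, a difference of -0.97 ± 0.31; its other probe gave 0.12 ± 0.56, so the probes disagree. Cars2, the mitochondrial cysteinyl-tRNA synthetase, read 1.97, 2.18, 1.84 and 1.73 after EGFP and 1.57, 1.67, 1.44 and 1.17 after DEL, a difference of -0.47 ± 0.22, and its other probe gave -0.34 ± 0.39. The remaining members were Rps2 and Rpl41, which encode ribosomal proteins, Rbx1, a ubiquitin ligase subunit, and P2rx2, Vpreb3 and Nos3. EGFP replicate 2 was the highest EGFP array for all 10 of these genes, and their median difference was -0.94 with it and -0.60 without it. Its part in the differences was otherwise not tested.

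**Figure D2:**
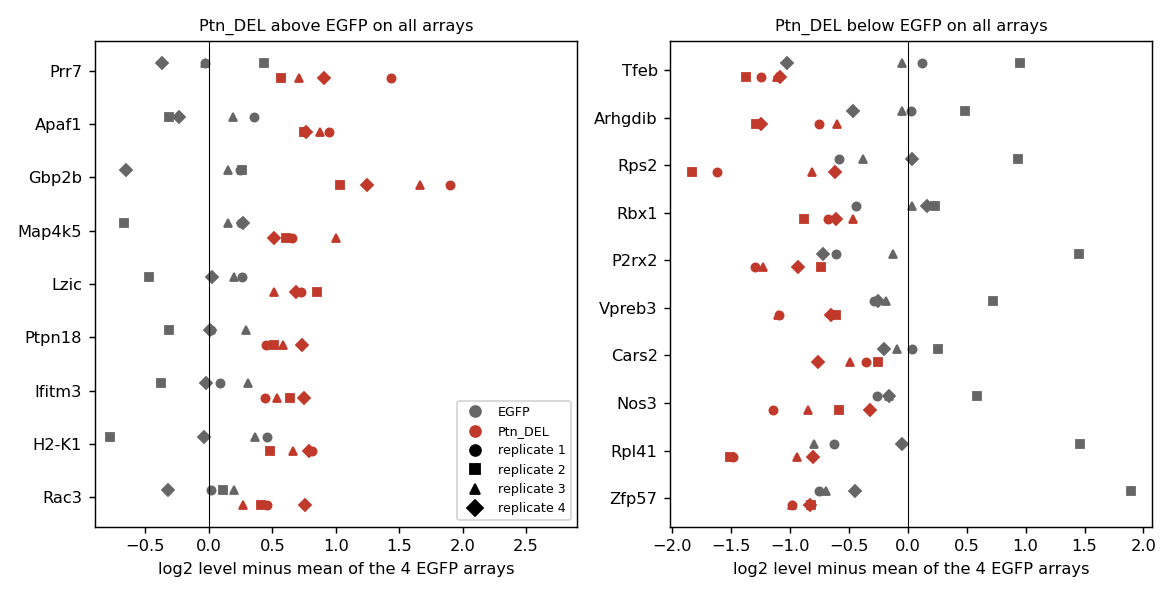
Log2 level of 9 of the 10 steady genes with the smallest p above EGFP (left) and of the 10 below EGFP (right), each set to the mean of its 4 EGFP arrays at 0; grey points are EGFP arrays, red points Ptn_DEL arrays, and shapes give the replicate. Red and grey points do not overlap for any gene shown, and the square of EGFP replicate 2 is the highest grey point in all 10 rows on the right.

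These genes were set beside the other TALE constructs, whose comparisons with EGFP share the same EGFP arrays. The 10 steady higher genes had median differences from EGFP of 0.69 for Ptn_DEL, 0.62 for Ptn_Delta and 0.54 for Ptn_VP64. The 10 steady lower genes had medians of -0.94, -0.84 and -0.79 in the same order. Read directly between the TALE constructs, without EGFP, the medians of Ptn_DEL minus Ptn_Delta were 0.09 and -0.13. Apaf1, for example, differed from Ptn_Delta by 0.15 ± 0.28 and Gbp2b by 0.09 ± 0.55 (SE). Over all probes, limma called 0 differences between Ptn_DEL and Ptn_Delta, with 16 probes at an unadjusted p under 0.05, against 388 for Ptn_DEL and EGFP. Between Ptn_DEL and Ptn_VP64 it called 1 gene, Il33, a cytokine of the interleukin 1 family, which was lower after DEL by a log2 difference of -5.59 ± 0.24 (adjusted p = 0.0460). That call was lost, leaving 0 genes, without any 1 of EGFP replicates 1, 3 and 4 and Ptn_DEL replicates 1 and 4. It was also lost without patch correction, on slide 1 alone, under the quantile, normexp and deposited scalings, and under other filters.

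Pluripotency genes stood slightly lower after DEL as groups, and none of their members passed the test. Of 13 core pluripotency genes measured, 11 were lower, with a median difference of -0.18, beside -0.003 over all probes tested; the sign of that median held in all 26 alternatives, from -0.32 to -0.01. Fgf4, a growth factor driven by Oct4 and Sox2, read 4.59, 4.53 and 5.00 in EGFP replicates 1, 3 and 4 and 3.99, 4.43 and 3.96 in Ptn_DEL replicates 1, 3 and 4. Its groups did not overlap, with a fitted difference of -0.46 ± 0.24 (SE; limma, adjusted p = 1.00). Pou5f1, which encodes Oct4, read 7.91, 6.29 and 7.02 in EGFP replicates 2 to 4 and 5.99 and 6.37 in Ptn_DEL replicates 3 and 4, a difference of -1.60 ± 1.96 that was -0.47 without EGFP replicate 2. Its probe was saturated on 1 array of each group. Of the naive pluripotency genes, 14 of 22 were lower, with a median of -0.12 that turned to 0.03 after normexp correction. For Ptn_Delta minus EGFP the core and naive medians were -0.26 and -0.13, over the same EGFP arrays. For Ptn_DEL minus Ptn_Delta they were -0.008 and 0.02. Many of these probes are bright, and at a mean level of 5 to 6 probes outside the ribosomal list had a median of -0.13, with 5.20% of values saturated in EGFP and 14.8% in Ptn_DEL; the part of saturation in the pluripotency values was not tested. Nr0b1, a nuclear receptor of ES cells, read 5.12, 5.90, 4.98 and 5.74 after EGFP and 4.72, 4.53, 5.05 and 4.46 after DEL. Ptn_DEL replicate 3 lay within the EGFP range, and the difference was -0.75 ± 0.34.

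Genes of the LIF and STAT3 signal, pathway members such as Il6st and Stat3 as well as targets, lay the other way. Of 10 measured, 7 were higher after DEL, with a median of 0.22 that turned to -0.04 after quantile normalization. The list's median was 0.01 for Ptn_Delta minus EGFP and 0.05 for Ptn_DEL minus Ptn_Delta. Socs1, a feedback inhibitor of cytokine signalling, read -1.71, -1.95, -1.79 and -1.68 after EGFP and -0.82, -1.30 and -0.92 in Ptn_DEL replicates 2 to 4. All 3 Ptn_DEL arrays were above EGFP, by 0.70 ± 0.25 (SE; limma, adjusted p = 1.00), with a range over the alternatives from -0.09 to 1.06. Cish, another such inhibitor, read -1.53, -0.47, -0.47 and -0.37 after EGFP and -0.11, -0.10, -0.04 and -0.31 after DEL. Its groups did not overlap, and EGFP replicate 1 lay far below the other EGFP arrays. The difference was 0.57 ± 0.29 with that array and 0.30 without it. In the primed epiblast list, 8 of 12 were higher, with a median of 0.21.

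Genes of epithelial junctions, cell matrix and trophoblast were more often higher than lower after DEL. With arrays unaveraged, the list medians of Ptn_DEL minus EGFP were 0.44, 0.30 and 0.61, larger than the medians given below from the pairings. The medians of these lists were 0.41, 0.05 and 0.36 for Ptn_Delta minus EGFP, over the same EGFP arrays. For Ptn_VP64 minus EGFP they were 1.04, 0.55 and 2.25, and for Ptn_DEL minus Ptn_Delta -0.05, -0.08 and -0.12. Of 21 cadherin and junction genes, 15 were higher, with a median of 0.23, 3 at an unadjusted p under 0.05, beside 1.01% of all probes, and 3 of 12 above EGFP without overlap, beside 3.56%; no member passed the adjusted test. Ocln, which encodes the tight junction protein occludin, read -1.89, -0.79 and -1.01 in EGFP replicates 2 to 4 and 0.16, -0.11, -0.08 and -0.07 after DEL. Its Ptn_DEL arrays were tightly grouped above EGFP, by 1.09 ± 0.36 (SE; limma, adjusted p = 1.00). Cldn7, a claudin, read -1.37, 0.94 and -0.10 in EGFP replicates 2 to 4 and 2.14, 0.81, 2.00 and 0.99 after DEL, a difference of 1.38 ± 0.76 with overlapping groups. Marveld3, another tight junction protein, was not well above background on any of 3 EGFP arrays. Its mean was at least 2.02-fold higher after DEL, where 2 of 3 arrays were well above background. Over 28 alternatives the Marveld3 difference ran from -0.09 to 3.20, so that bound did not hold in all of them. Cdh10, a cadherin, was not well above background in EGFP, at -3.68, -3.58 and -4.15, and read -1.68, -1.99 and -1.49 after DEL. Its mean was at least 1.29-fold higher after DEL, with 2 of 3 arrays well above background. Over the alternatives the Cdh10 difference ran from 0.15 to 2.52.

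Integrin and matrix genes were higher in 13 of 20, with a median of 0.12 that turned to -0.17 after normexp correction. Itga3, an integrin subunit for laminin receptors, read -1.16, -1.49, -0.70 and -2.08 after EGFP and -0.06, 0.10, 0.17 and 0.23 after DEL. Every Ptn_DEL array was above every EGFP array, by 1.46 ± 0.41 (SE; limma, adjusted p = 1.00), although only 2 of 4 EGFP arrays were well above background. Itga8 and Adamts1 were not well above background on any measured EGFP array, and their means were at least 1.35-fold and 1.54-fold higher after DEL. Over the alternatives their differences ran from -0.21 to 2.67 and from 0.004 to 3.42. Nid1, a basement membrane protein, went the other way, with 2.00, 2.59 and 1.56 after EGFP, 1.24, 0.86 and 1.56 after DEL and a difference of -0.62 ± 0.34.

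Among trophoblast genes, 11 of 14 were higher, with a median of 0.53, the largest of the 37 lists, and a range over 26 alternatives from 0.04 to 1.30. The keratin genes Krt8 and Krt18, which are also expressed by other simple epithelia, read 0.91 and 0.35 against 3.89, 1.14 and 3.55, and 0.23, 3.25 and 0.83 against 4.59 and 2.25, in EGFP and Ptn_DEL. Both keratins varied by several log2 units within a group, and their differences of 1.80 ± 1.54 and 1.53 ± 1.16 (SE; limma, adjusted p = 1.00) were about the size of their errors. Rhox6, a placental homeobox gene, read -0.11, -2.37 and -1.40 against 0.43, 0.32 and -0.07, groups that were apart by a narrow margin, with a difference of 1.15 ± 0.72. Of 8 trophoblast markers, 5 were well above background on 2 or more Ptn_DEL arrays and 1 on as many EGFP arrays. Markers of other cell types also passed more often after DEL: 7 of 7 primitive endoderm markers, 4 of 10 fibroblast markers and 3 of 7 blood and immune markers passed on 2 or more Ptn_DEL arrays, against 1 of each list on EGFP arrays, and 3 of 6 neural markers in both groups. The limit for being well above background lay higher on EGFP arrays, with 1st percentiles of -2.40 to -1.36 against -3.29 to -2.07, and its part in these counts was not tested. Elf5, Hand1 and Tpbpa were not well above background on any array of either group. The summed level of the markers measured was 0.147 to 1.49 in EGFP and 0.800 to 1.72 in Ptn_DEL, as a multiple of the 75th percentile and over 1 to 4 markers per array, and the part of such cells in the result was not tested. In bulk RNA, more cells of a type and more RNA per cell cannot be told apart.

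Targets of p53 and immediate early genes were more often higher than lower, and heat shock genes more often lower. The medians of these lists were 0.18, 0.14 and -0.006 for Ptn_Delta minus EGFP. For Ptn_DEL minus Ptn_Delta they were 0.007, 0.0009 and -0.04. Of 24 targets of p53, 18 were higher after DEL, with a median of 0.26, 2 at an unadjusted p under 0.05, beside 1.01% of all probes, and 1 above and 2 below EGFP without overlap among 17, beside 3.56% and 2.3%; the sign of the median held in all 26 alternatives. Perp, a p53 target and desmosome component, read 2.80, 3.46 and 2.92 in EGFP replicates 2 to 4 and 4.22, 4.33, 4.16 and 4.31 after DEL. Its groups were well separated, by 1.09 ± 0.32 (SE; limma, adjusted p = 1.00). Cdkn1a, the cell cycle inhibitor p21, read 0.72, 0.08, 1.14 and 0.63 after EGFP and 1.34, 1.13, 1.21 and 1.25 after DEL, where the lowest Ptn_DEL array was within the EGFP range. Its difference was 0.59 ± 0.30. Plk2, a polo-like kinase, read 0.60, -0.87 and 0.43 in EGFP replicates 1, 2 and 4 and 1.34 and 1.81 in Ptn_DEL replicates 2 and 3, a difference of 1.76 ± 0.59. Phlda3, an inhibitor of Akt, read 3.41 and 2.74 against 4.06, 3.99 and 3.58, a difference of 0.73 ± 0.38. Immediate early genes were higher in 13 of 17, with a median of 0.32. Heat shock genes were lower in 12 of 14, with a median of -0.14 that turned to 0.04 after normexp correction, and Hspa8, a constitutive chaperone among the brightest probes, differed by -0.53 ± 0.29.

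**Figure D3:**
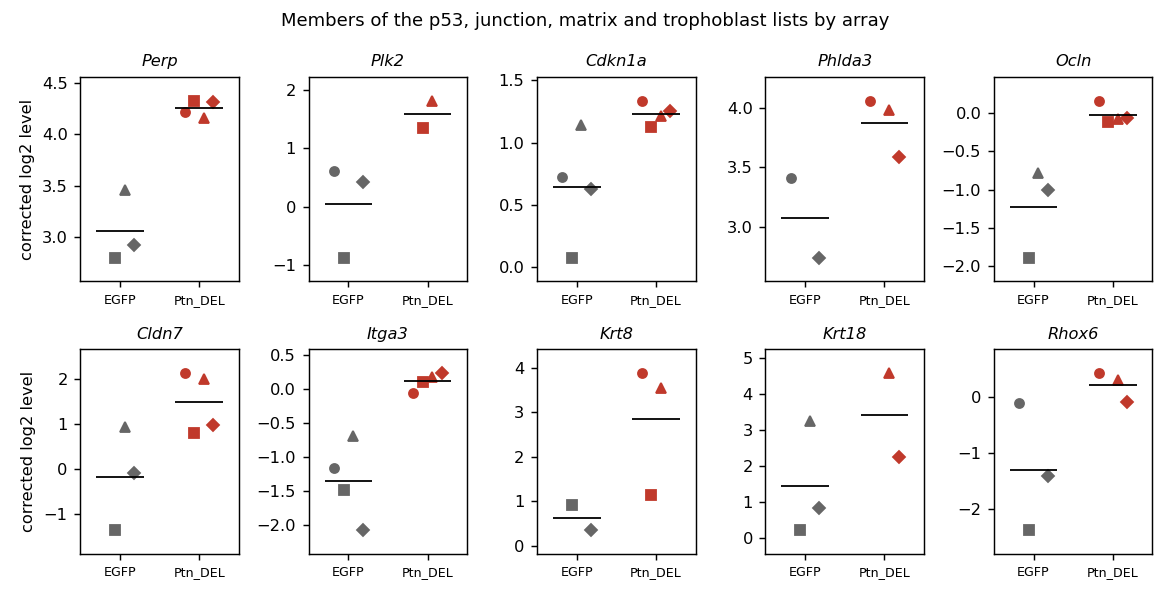
Corrected log2 level of 10 members of the p53, junction, matrix and trophoblast lists in EGFP (grey) and Ptn_DEL (red); each point is 1 array, shapes give the replicate as in the plot of steady genes, bars are group means, and spots that were marked or in a patch are not shown. Perp, Ocln and Itga3 show tight Ptn_DEL groups above EGFP, while Krt8 and Krt18 spread by over 2 log2 units within Ptn_DEL.

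Ribosomal protein genes made up the list with the lowest median. Of 60 measured, 53 were lower after DEL, with a median of -0.65, and 6 of 40 lay below EGFP without overlap, against 2.3% of all probes; 4 were lower at an unadjusted p under 0.05, beside 0.975%, and 0 passed the adjusted test in limma on averaged or unaveraged arrays. Rps6 read 6.26, 8.69, 6.54 and 7.06 after EGFP and 5.78, 5.61, 6.26 and 6.37 after DEL. Rpl29 read 6.13, 8.63, 6.82 and 7.12 against 5.76, 5.66, 6.31 and 6.42. In both, EGFP replicate 2 was far above all other arrays, and EGFP replicate 1 lay within the Ptn_DEL range, so that the groups overlapped. Their differences were -1.13 ± 0.46 and -1.14 ± 0.47 (SE; limma, adjusted p = 1.00). The list's median was -0.49 for Ptn_Delta minus EGFP, over the same EGFP arrays, and -0.05 for Ptn_DEL minus Ptn_Delta.

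Saturation moved with this result. The median level of ribosomal probes was 8.08 on EGFP replicate 2, where 3 of 49 spots measured were saturated, and 5.59 to 7.02 on the other 7 arrays, where 24 to 49 of 37 to 58 were. A saturated spot gives only a lower bound, and Rps6 and Rpl29 were saturated on 3 EGFP arrays and on all 4 Ptn_DEL arrays. The list's median was -0.42 without EGFP replicate 2, -0.81 on the first slide, -0.53 on the second and -0.11 in the deposited series values. Probes of other genes at a mean level over 6 had a median difference of -0.54, beside -0.71 for the 54 ribosomal probes there, and 73.8% of values from Ptn_DEL and 55.4% from EGFP were saturated at that level. The 4 ribosomal probes that were not saturated on any of the 8 arrays had a median of -0.01. The part of saturation in the lower ribosomal and heat shock values was not tested beyond this.

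**Figure D4:**
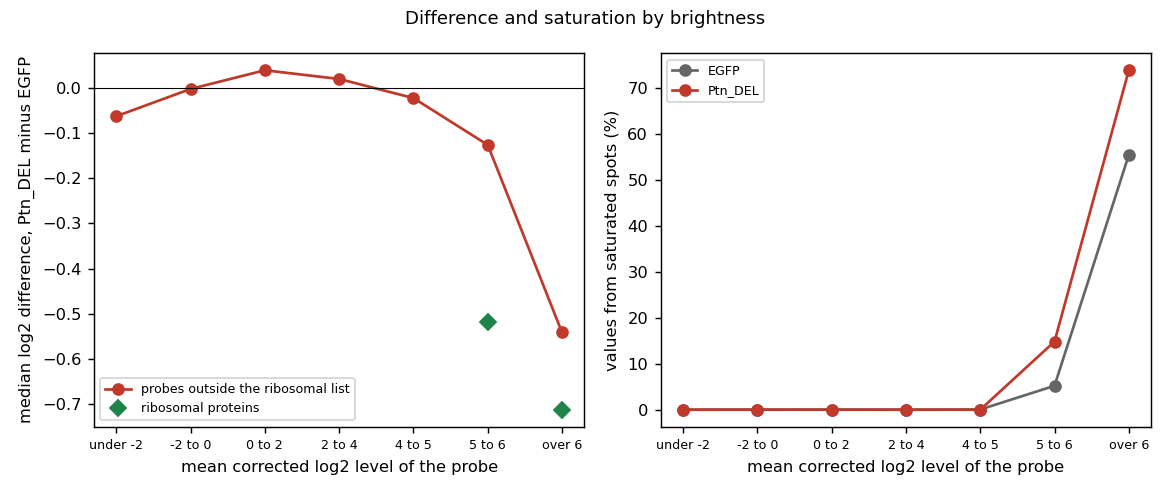
Left, median log2 difference of Ptn_DEL minus EGFP against the mean corrected log2 level of the probe, for probes outside the ribosomal list (red) and for ribosomal proteins where a bin held 4 or more (green); right, percent of values from saturated spots in EGFP and Ptn_DEL in the same bins. Medians were near 0 up to a level of 5 and reached -0.54 over 6, where 55.4% (EGFP) and 73.8% (Ptn_DEL) of values were saturated.

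Genes of the chromatin machinery, the process that DEL is known to act on, were level as groups. Medians were 0.01 for 21 heterochromatin and H3K9 genes, 0.003 for 21 Polycomb genes, 0.02 for 19 acetyltransferase and other activating genes, 0.06 for 24 remodellers, 0.01 for 18 histone chaperones and variants and 0.02 for 13 DNA methylation genes. These are differences in transcripts only. Nuclear lamina and envelope genes were higher in 10 of 16, with a median of 0.11 that turned to -0.19 after quantile normalization. Cbx5, which encodes the heterochromatin protein HP1 alpha, read -2.07, -1.24 and -0.97 in EGFP replicates 2 to 4 and -0.72, -0.48, -0.67 and -0.60 after DEL. It lay above EGFP throughout, by 0.97 ± 0.35 (SE; limma, adjusted p = 1.00), and by 0.41 without EGFP replicate 2, and only 1 of 3 EGFP arrays was well above background. Ep300, the acetyltransferase p300, read -0.34 and -0.12 against 0.58 and 1.02, a difference of 1.03 ± 0.38. Lmnb2, which encodes lamin B2, read -0.39, -0.20 and 0.94 against 1.29, 0.46 and 1.40 with overlapping groups.

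Receptors and partners of pleiotrophin were measured in 14 of 20 cases, 10 higher and 4 lower, with a median of 0.09. Lrp2, the endocytic receptor megalin, read -0.33, 1.05 and 1.76 after EGFP and 1.79, 2.50, 1.88 and 2.58 after DEL. All Ptn_DEL arrays were above EGFP, the closest by a narrow margin, and the difference was 1.65 ± 0.61 (SE; limma, adjusted p = 1.00). For Lrp2, Ptn_Delta differed from EGFP by 1.79 and Ptn_VP64 by 2.71 over the same EGFP arrays, and Ptn_DEL from Ptn_Delta by -0.14 ± 0.61. The list's median was 0.02 for Ptn_Delta minus EGFP and 0.03 for Ptn_DEL minus Ptn_Delta. Alk and Ptprz1, the receptor kinase and phosphatase, lay near the background of these arrays. Alk read -3.73, -3.87 and -4.27 on EGFP arrays, none of them well above background, and -2.59, -2.89, -3.41 and -2.39 after DEL. No fold is given, because the level below which a probe could not be told from background was as high as its Ptn_DEL values.

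Of the 10 genes on each side of Ptn in RefSeq order, 10 of 20 were measured, 5 higher and 5 lower, with a median of -0.02. Mtpn, the nearest one measured before Ptn, which encodes myotrophin, read 2.13 and 2.44 after EGFP and 2.05, 1.84 and 2.17 after DEL, a difference of -0.23 ± 0.41. Creb3l2, the nearest measured after Ptn, a membrane-bound transcription factor, read -2.62, -4.08 and -3.38 against -3.52, -3.27, -2.88 and -3.36. It was well above background on none of the 3 EGFP arrays and on 1 of 4 Ptn_DEL arrays, so no difference is given. Slc13a4, a sulfate transporter, was not well above background on either EGFP array measured. Trim24, a chromatin reader, differed by 0.04 ± 0.35 (SE; limma, adjusted p = 1.00). Stra8, a gene of meiotic entry, read 2.30 and 1.60 in EGFP replicates 3 and 4 and 2.71, 2.70 and 3.22 in Ptn_DEL replicates 1, 3 and 4. Its groups did not overlap, with 1.00 ± 0.32 (adjusted p = 1.00). Stra8 was measured on too few EGFP arrays for the count of probes without overlap, which asked for 3 in each group. No share over all probes can therefore be set beside it.

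**Figure D5:**
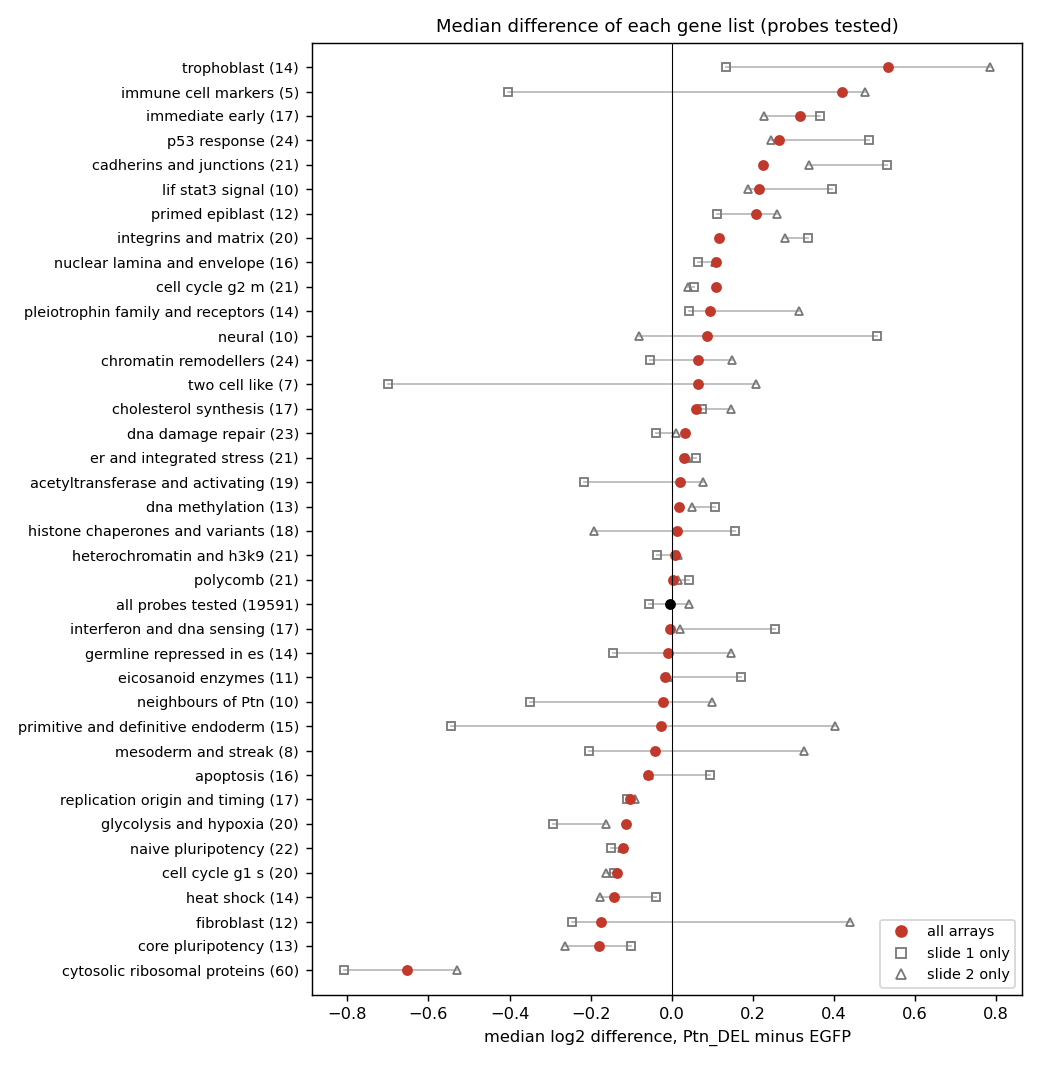
Median log2 difference of Ptn_DEL minus EGFP for each of 37 gene lists, with the number of genes measured in brackets; filled points are from all arrays (black, all probes tested), squares from the first slide alone and triangles from the second. Medians ran from -0.65 for ribosomal proteins to 0.53 for trophoblast, and several lists, such as 2-cell-like genes and fibroblast markers, had opposite signs on the slides. Filled points take, for each probe, the pairing with the largest p, so they can lie outside the values of both slides.

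Probes that crossed the background limit went almost wholly one way. Of 12842 probes measured on at least 3 arrays in each group, 107 had signal on every measured Ptn_DEL array and on no EGFP array. Of these, 76 had a gene name, and the reverse was found for 1 probe. The filter asked for signal on 4 of all 16 arrays, so the other TALE groups could bring in probes without signal in EGFP. The part of that filter in the count was not tested. The lowest levels at which probes were well above background were also higher on EGFP arrays, with 1st percentiles of -2.40 to -1.36 in EGFP and -3.29 to -2.07 in Ptn_DEL, and the part of that limit in the count was not tested. Beside Gbp2b, named genes of this kind were Capn13, a calpain protease, at least 1.44-fold higher after DEL, and Sprr2a2, a small proline-rich protein of epithelia, at least 1.39-fold. Capn13 was well above background on the 4 Ptn_DEL arrays alone of all 16, so it was tested only because of the group where it is high, and its groups overlapped, with EGFP replicate 1 at -1.69 and Ptn_DEL replicate 3 at -1.76. The bound for Patj, a polarity protein of tight junctions, was lower than these. Over the alternatives the differences of Capn13 and Sprr2a2 ran from 0.07 to 3.12 and from 0.32 to 2.84. Sprr2a2 had a second, bright probe that differed by -0.001 ± 0.383.

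The smallest p-values belonged to dim probes or to few arrays, and the following genes were chosen after their values were seen. Klra16, a receptor of natural killer cells, read -0.89 and -1.22 in EGFP replicates 2 and 4 and -5.40, -4.40 and -4.94 in Ptn_DEL replicates 1, 3 and 4. It had the smallest p, 0.000144 in limma (adjusted p = 1.00), and was well above background on 1 of these EGFP arrays. Its bound was at least 2.97-fold lower after DEL, but the EGFP mean behind it includes an array not well above background. Slc40a1, the iron exporter ferroportin, read -0.29, 0.06 and -0.21 after EGFP and 1.51, 1.38 and 1.12 after DEL. It was well above background on all 6 of these arrays and differed by 1.56 ± 0.24 (SE; limma, adjusted p = 1.00), while Ptn_Delta differed from EGFP by 1.80 and Ptn_VP64 by 2.30 over the same EGFP arrays. The probe that the array design calls NEAT2 read 0.28, 1.06 and 0.99 against 2.78, 2.94 and 2.72, a difference of 2.14 ± 0.33. NEAT2 was well above background on 2 of 3 EGFP arrays. For it, Ptn_Delta differed from EGFP by 2.38 and Ptn_VP64 by 1.34 over the same EGFP arrays. Slc40a1 and NEAT2 both showed compact groups with a gap wider than the spread inside either group.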

How the data were processed

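RNA of the 4 groups was hybridised to 16 single-colour Agilent mouse arrays, and the 8 arrays of Ptn_DEL and EGFP were compared. By the labels, each group was 2 biological samples with technical repeats. The members and the gene lists were chosen with earlier results of these data known. The deposited intensity values are processed signals from Agilent Feature Extraction 11.5.1.1, per the file headers, with background subtracted and, on 9 of 16 arrays, a multiplicative detrending. The deposited series table holds log2 values with the same quantiles on every array and was used as an alternative. The 62976 spots of each array gave 55681 probes outside the controls, 27656 of them with a gene symbol.

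Levels were log2 of the processed signal minus the array's 75th percentile. Each spot was corrected by the median shift in a window of 21 by 21 spots, and left out where the array's local shift lay over 1 log2 unit from its median or where the scanner software had marked the spot. Probes well above background on 4 arrays and left on 2 in every group were tested, 19591 in all. Because the labels do not say which hybridisations are technical repeats, limma 3.58.1 (R 4.3.3) was fitted over all 4 groups with arrays averaged in each of the 3 possible pairings, with slide as a term where the pairing allowed it, and the largest p was kept and adjusted by Benjamini-Hochberg at 0.05. Each difference and standard error is that of the pairing with the largest p. Where values are missing, it can differ from the difference of the group means, also in sign, and can lie nearer 0. The same holds for differences between TALE constructs and for list medians. The cadherin and junction median was 0.23 this way, 0.44 with arrays unaveraged, and 0.53 and 0.34 on slides 1 and 2. The fibroblast median was -0.18 this way and 0.04 with arrays unaveraged. P-values may still measure partly technical spread, and the number of arrays limits the precision. The fit was tested on simulated data. The scanner tables used here hold no mean signal, so the normexp alternative took median signals with an offset of 50.

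Named genes are Ptn and its nearest measured neighbours, every called gene, the 10 steady genes with the smallest p each way, up to 4 members of each list with the smallest p, and up to 5 genes each way that crossed the background limit. Some genes that this rule names are not reported here. A gene's list value is its brightest probe. A bound ("at least") sets the brighter group's mean against, per array, the higher of the dim probe's own level and the 1st percentile of levels well above background. Such a bound carries no sampling error, and some alternatives gave smaller differences than it. The brighter group's mean can include arrays not well above background, as for Klra16, Marveld3 and Cdh10, and the bound is then less firm. Alternatives covered the scaling, background, filters, patch correction, slides and each array left out. Python 3.11.15 with numpy 2.4.6, pandas 2.3.3 and matplotlib 3.10.9 served for the rest.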

Additional observations from a re-analysis of the deposited data

Results flagged for a closer look

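In 13 of 164 groups of 4 arrays, 1 array stood apart from the other 3 by more than Dixon's 95% limit, which chance passes in about 1 group in 20. EGFP replicate 2 was that array in 6 of them. Its median correlation with the other arrays of the series was 0.861, while this value was 0.941 to 0.948 for the other EGFP arrays. It was low for Map4k5, at 0.61 beside 1.43 to 1.55, and for the repair gene Rad52, at 0.66 beside 0.86 to 0.87. It was high for Vpreb3, at 0.71 beside -0.31 to -0.20, for Nos3, at -0.26 with the lowest of the others at -1.10, and for Zfp57, at 1.71 beside -0.93 to -0.62.

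EGFP replicate 4 stood apart for Gbp2b, at -1.53 with the others at -0.73 to -0.62, and for the macrophage receptor gene Csf1r, at -4.17 with the others at -3.36 to -3.25. EGFP replicate 1 was low for Cish, at -1.53 beside -0.47 to -0.37. Among Ptn_DEL arrays, replicate 4 had a 75th percentile of signal of 649, beside 898 to 935. Replicate 2 was high for the Polycomb gene Pcgf3, at 1.29 beside -0.35 to -0.15. Replicate 3 was high for Srebf2, a regulator of cholesterol synthesis, at 2.93 beside 1.79 to 1.96. Replicate 1 was high for Ocln, at 0.16 beside -0.11 to -0.07.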

How the results depend on the processing

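The count of genes called between Ptn_DEL and EGFP was 0 in 27 of 28 alternatives; the arrays unaveraged with the replicate block gave 1, Klra16 (-3.59 ± 0.26, adjusted p = 0.0315), with 772 probes higher and 782 lower at an unadjusted p under 0.05. Same-numbered arrays did not deviate together throughout (correlations 0.267, 0.331, -0.165 and 0.019), so the numbers do not pair them. Leaving out 1 array from the unaveraged fit gave 0 to 20 calls: 2, 3, 20 and 20 without EGFP replicates 1 to 4 and 1 without Ptn_DEL replicate 3. Calls between Ptn_DEL and Ptn_VP64 were 44 with arrays unaveraged, 208 with the replicate block and 0 to 1 without 1 array; they were 0 without patch correction, on slide 1, after quantile normalization, in the deposited series values, after normexp, with signal on 8 arrays required, with no filter, with marked spots kept, without detrending and with 2 arrays required in the compared groups only. Steady probes without overlap numbered 52, 24 at a patch limit of 0.5 and 72 to 179 without 1 array (over 1.5 times more without any of the arrays but Ptn_DEL replicate 1), where fewer arrays are compared. The ribosomal median was -0.11 in the deposited series values; the cause was not tested. The median of all probes moved from -0.003 to 0.13 without patch correction, 0.20 in the deposited values, -0.12 after normexp and -0.39 with no filter, and probes at an unadjusted p under 0.05 numbered 195 to 1554, with 518 higher and 46 lower without patch correction and 86 higher and 677 lower with no filter. On slide 1 they were 302 and 865 and on slide 2 524 and 301. Of 4839 alternative values for 177 named results, 628 moved by more than 1 standard error and 170 had the other sign; of 962 for the list medians, 183 had the other sign. The alternatives without detrending, with 2 arrays required in the compared groups, and without each array unaveraged were chosen after seeing the data.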
